A study of Mus musculus with 5 samples.

Results

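The genes of the interleukin 18 and interleukin 1 systems examined here are Il18, Il18bp, Il1b, Il1rn and Il1r1. They were taken as every probe set whose platform annotation carries 1 of these 5 symbols, which gave 5 probe sets, 1 for each gene, of 12488 on the array and of 8251 genes with a single symbol. Il18 and Il18bp were included because both read lower in the 2 Fos+/+ arrays, so their difference between Fos-/- and Fos+/+ cultures is a description and supports nothing. The arrays measured total RNA of 5 mouse co-cultures, with 1 one-colour array for each: Fos-/- splenocytes infected with deltaNFAT-virus, Fos-/- splenocytes infected with GFP-virus, Fos-/- splenocytes without virus, Fos+/+ bone marrow cells and Fos+/+ splenocytes. Every culture was kept for 6 days on stromal ST2-T cells with dexamethasone and 1,25-dihydroxyvitaminD3, conditions that form osteoclasts, and the dish was lysed whole, so that each array also holds the RNA of the stromal cells. The labels give neither the strain, age or sex of the mice, nor the virus doses, nor a description of the deltaNFAT construct.

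Interleukin 18 and interleukin 1 beta are cytokines made as inactive precursors that caspase-1 cuts into their secreted forms. Interleukin 1 signals through the receptor encoded by Il1r1 and is held back by the receptor antagonist encoded by Il1rn, while the product of Il18bp binds interleukin 18 in solution and keeps it from its receptor. In mouse bone cultures interleukin 1 is known to promote the formation and survival of osteoclasts, and interleukin 18 to limit osteoclast formation through cytokines that T cells release.

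With 1 array a group, no value has a replicate error, and folds are given without a test or p-value. Values are intensities on a linear scale, scaled so that all arrays share a trimmed mean. The floor was an intensity of 19.8, the 40th percentile of all values. To be called higher or lower, a gene needed a fold of 2 between a pair of arrays and a reading of 39.6 in the brighter one, and a fold against an array at the floor is a lower bound, written "at least". Each array had 58.4 to 62.2% of its probe sets over this floor and 20.3 to 22.4% of its values at or below 0. The brighter Fos probe set read 581 with deltaNFAT, 607 with GFP and 426 without virus in Fos-/- cultures, against 614 in Fos+/+ bone marrow and 849 in Fos+/+ spleen. The stromal cells may express Fos of their own and where its probes lie relative to the deletion is unknown, which leaves Fos no check of the labels. The osteoclast markers Ctsk, Acp5, Calcr, Car2, Tcirg1, Mmp9, Nfatc1 and Tnfrsf11a, 8 of 8 on the array, were at least 2.37-fold below Fos+/+ in Fos-/- spleen.

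The promoters of Il18, Il18bp and Il1rn are shown because the first pair were high in the same 3 arrays and Il1rn was not. Each window runs from 250 bases before to 50 bases after the gene's start, 5′ to 3′ on the gene's strand, from RefSeq (GRCm38.p6). Capitals mark matches to 3 motifs searched on both strands, where N is any base: AP-1, the site of Fos and Jun (TGANTCA), an interferon regulatory factor site (GAAANNGAA) and an NFAT core (TGGAAA).
Il18, chr9:50554450-50554749, + strand: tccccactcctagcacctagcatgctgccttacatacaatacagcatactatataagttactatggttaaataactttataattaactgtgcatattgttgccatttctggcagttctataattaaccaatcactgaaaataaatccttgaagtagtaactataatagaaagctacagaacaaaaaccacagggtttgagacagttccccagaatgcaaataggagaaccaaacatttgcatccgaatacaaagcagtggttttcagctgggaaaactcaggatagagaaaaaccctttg
Il18bp, chr7:102018183-102018482, - strand: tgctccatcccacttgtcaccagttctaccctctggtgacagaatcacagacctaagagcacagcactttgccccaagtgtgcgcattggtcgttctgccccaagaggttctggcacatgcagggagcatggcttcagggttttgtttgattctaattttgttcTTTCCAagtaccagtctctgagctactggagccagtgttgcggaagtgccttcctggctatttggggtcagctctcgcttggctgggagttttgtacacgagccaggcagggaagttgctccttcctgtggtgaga
Il1rn, chr2:24336610-24336909, + strand: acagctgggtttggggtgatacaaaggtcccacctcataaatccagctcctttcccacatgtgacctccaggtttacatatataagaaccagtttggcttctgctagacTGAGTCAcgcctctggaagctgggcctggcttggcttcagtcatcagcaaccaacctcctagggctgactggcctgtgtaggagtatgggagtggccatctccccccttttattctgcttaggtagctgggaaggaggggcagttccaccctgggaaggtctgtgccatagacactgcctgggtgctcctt

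The Il18 window held 0 matches to any of the 3 motifs and had a GC content of 36.7%. The Il18bp window held 1 match, an NFAT core on the opposite strand whose first base in the printed sequence lies 86 bases before the start, and had a GC content of 52.7%. The Il1rn window shown held 1 AP-1 match, which begins 141 bases before the start, and no 2 matches overlapped in any printed window. RefSeq gave all 5 genes at least 1 window and 8 windows in all. In the other 5 windows, 0 AP-1 and 0 interferon regulatory factor matches were found, and an NFAT core lay in the Il1b window and in both remaining Il1rn windows, which overlap each other. Of 32851 windows in the table, 7.81% held the AP-1 letters, 8.56% the interferon regulatory factor site and 21.4% the NFAT core. A match is a run of letters in this window and was not tested as a binding site.

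The interleukin 18 pair read higher in all 3 Fos-/- arrays than in both Fos+/+ arrays, the pattern for which they were chosen. Il18, the cytokine, read 62.4 with deltaNFAT, 84.8 with GFP and 53.5 without virus in Fos-/- spleen, against 22.0 in Fos+/+ bone marrow and -2.20 in Fos+/+ spleen. The GFP array was the highest, and Fos+/+ spleen was the one array under the floor. Il18bp, the secreted inhibitor, read 51.5 with deltaNFAT, 71.0 with GFP and 128 without virus in Fos-/- spleen, against 2.70 in Fos+/+ bone marrow and 18.6 in Fos+/+ spleen. It was above the floor in the Fos-/- arrays and under it in both Fos+/+ arrays. The lowest Fos-/- array exceeded the highest Fos+/+ array by 2.43-fold for Il18 and by at least 2.60-fold for Il18bp. Of 5564 genes whose brightest array reached 39.6, 10% had all 3 Fos-/- arrays above both Fos+/+ arrays and 15.1% had them all below. In these bulk cultures fewer cells of a type and less RNA per cell cannot be told apart.

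**Figure D1:**
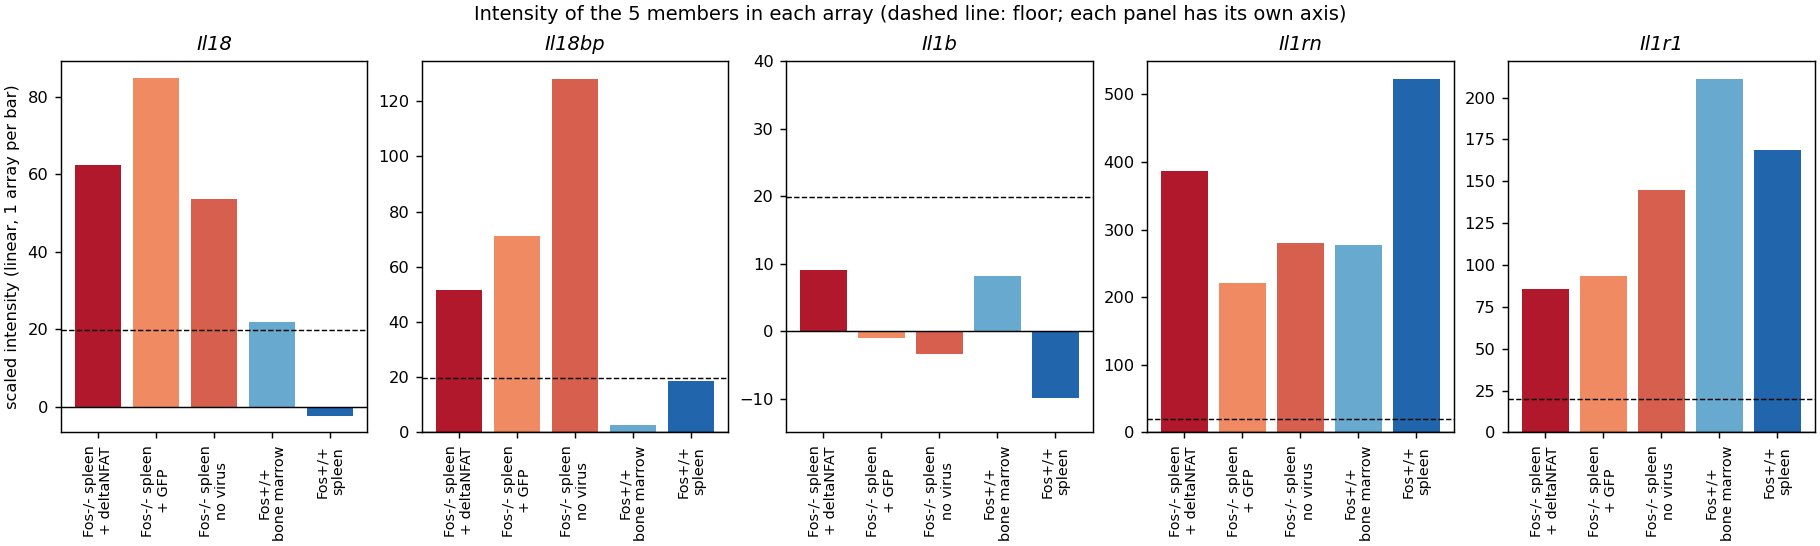
Scaled intensity (linear scale, vertical axis) of the 5 genes in the 5 arrays (horizontal axis), 1 bar per array, with the floor of 19.8 as a dashed line and a separate vertical axis for each gene. Il18 and Il18bp stand above the floor in the 3 Fos-/- arrays and under or near it in both Fos+/+ arrays, Il1b is under it everywhere, and Il1rn is highest in Fos+/+ spleen at 523.

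Both genes of the pair were dim. In the Fos-/- arrays Il18 lay between the 57.1 and 65.7 percentiles of all probe sets of its array, and Il18bp between 55.1 and 74.2. Values as far below 0 as -50 or farther made up 2.47 to 4.96% of each array, and the 1st percentile of an array lay between -133 and -77.6, so a reading of 50 to 85 is of the size that the spread around 0 reaches. The highest reading of the pair, 128 for Il18bp in Fos-/- spleen, was the one that exceeded the average size of the 1st percentile, 96.6.

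The interleukin 1 genes had other patterns. Il1b, the cytokine, read 9.10 with deltaNFAT, -1.0 with GFP and -3.40 without virus in Fos-/- spleen, against 8.20 in Fos+/+ bone marrow and -9.90 in Fos+/+ spleen. It was under the floor in all 5 arrays, and no fold is given for it. Il1rn, the receptor antagonist, read 387 with deltaNFAT, 221 with GFP and 280 without virus in Fos-/- spleen, against 277 in Fos+/+ bone marrow and 523 in Fos+/+ spleen. It lay between the 84.2 and 94.2 percentiles of its array, and the Fos-/- and Fos+/+ readings overlapped. Il1r1, the signalling receptor, read 85.8 with deltaNFAT, 93.6 with GFP and 145 without virus in Fos-/- spleen, against 211 in Fos+/+ bone marrow and 169 in Fos+/+ spleen. All 3 Fos-/- arrays were under both Fos+/+ arrays, an arrangement that 15.1% of genes shared, but Fos-/- spleen without virus lay within 1.17-fold of Fos+/+ spleen.

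The order of the arrays differed from gene to gene. Il18 ran from GFP through deltaNFAT, Fos-/- spleen without virus and Fos+/+ bone marrow down to Fos+/+ spleen. For Il18bp the order was Fos-/- spleen without virus, GFP and deltaNFAT, with both Fos+/+ arrays at the floor and so without order. Il1rn was highest in Fos+/+ spleen and then with deltaNFAT, and its next 2 arrays, Fos-/- spleen without virus and Fos+/+ bone marrow, read 280 and 277. Il1r1 went from Fos+/+ bone marrow through Fos+/+ spleen and Fos-/- spleen without virus to GFP and deltaNFAT, the last 2 within 1.09-fold. With 1 array a group, the spread against which neighbours in these orders could be judged is unknown.

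The first comparison asks what the loss of Fos does in spleen co-cultures. In Fos-/- spleen Il18bp was at least 6.47-fold and Il18 at least 2.70-fold above the Fos+/+ spleen reading, while Il1rn was 1.87-fold lower and Il1r1 1.17-fold lower, both short of 2-fold. Of the 5 genes 4 were bright enough to pass, 2 were called higher and 0 lower. Over all 4999 genes bright enough, 6.4% were higher and 6.52% lower. The higher pair was chosen on this contrast, and nothing is read from its count.

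GFP-infected Fos-/- spleen over Fos+/+ bone marrow shares no array with the first ratio but differs in tissue and virus as well. In it Il18 was 3.86-fold higher and Il18bp at least 3.59-fold higher, again as chosen. Il1r1 was 2.26-fold lower, and Il1rn was 1.25-fold lower. The 5 genes thus gave 2 called higher and 1 lower, beside 5.98% higher and 9.19% lower of all 5253 genes bright enough. At a floor of 65.1, the 60th percentile, the folds of Il18 and Il18bp no longer passed in either ratio, and that of Il1r1 did.

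**Figure D2:**
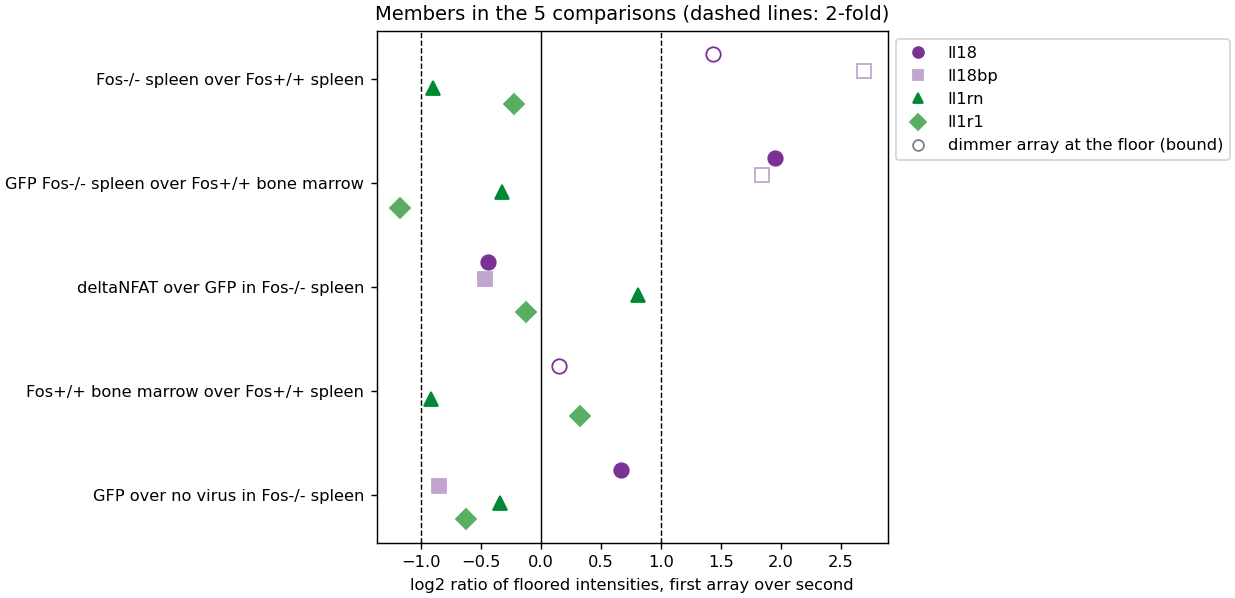
Log2 ratio of floored intensities (horizontal axis) of Il18, Il18bp, Il1rn and Il1r1 in the 5 comparisons (rows), the first-named array over the second, with open symbols where the dimmer array was at the floor and no symbol where both were. Dashed lines mark 2-fold. Il18 and Il18bp pass it upward in the upper 2 rows, with log2 ratios of 1.43 to 2.69, and Il1r1 passes it downward in the second row at -1.17.

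Among Fos-/- spleen cultures, none of the 5 genes reached 2-fold between the viruses. With deltaNFAT against GFP, Il1rn was 1.75-fold higher, whereas Il18 was 1.36-fold, Il18bp 1.38-fold and Il1r1 1.09-fold lower. The count was 0 higher and 0 lower of 4 bright enough, where 3.52% of 5033 genes were higher and 2.66% lower. Of the 8 osteoclast markers 5 (Ctsk, Acp5, Calcr, Car2 and Nfatc1) passed upward in this ratio and 0 downward, and Tcirg1, Mmp9 and Tnfrsf11a did not pass.

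Between GFP virus and no virus the interleukin 18 pair had ratios of opposite sign, both short of 2-fold. Il18 was 1.59-fold higher and Il18bp 1.80-fold lower with GFP, and Il1r1 was 1.54-fold and Il1rn 1.27-fold lower. The count was 0 higher and 0 lower of 4, beside 10.3% higher and 7% lower of 5114 genes. Between the Fos+/+ arrays, Il1rn was 1.89-fold lower and Il1r1 1.25-fold higher in bone marrow than in spleen. Il18 and Il18bp were too dim there for a call, and of the 2 genes bright enough 0 passed, beside 13.1% higher and 7.18% lower of 5289 genes.

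Other genes of the same systems were read from 6 lists with 76 genes on the array, beginning with ligands and receptors. Il1a, the other interleukin 1 agonist, read 8.0 with deltaNFAT, 29.2 with GFP and 15.4 without virus in Fos-/- spleen, against 25.4 in Fos+/+ bone marrow and 1.30 in Fos+/+ spleen, never reaching 39.6. Il1f5, a related antagonist, ranged from 14.5 to 29.0. The receptor chains outside the 5 genes were dim, apart from Il1r2. Il18r1 ranged from -1.80 to 17.4 and Il1rap, the shared accessory chain, from 5.40 to 11.5, both under the floor in all arrays, and Il18rap from -3.10 to 29.8. Thus neither chain of the interleukin 18 receptor reached 39.6 in any array.

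Il1r2 is a decoy receptor that binds interleukin 1 without signalling, and it was the exception among the receptors. Its brighter probe set read 90.4 with deltaNFAT, 26.0 with GFP and 18.1 without virus in Fos-/- spleen, against 60.7 in Fos+/+ bone marrow and 19.5 in Fos+/+ spleen. It was 3.48-fold higher with deltaNFAT than with GFP, 2.33-fold lower in GFP-infected Fos-/- spleen than in Fos+/+ bone marrow, and at least 3.07-fold higher in Fos+/+ bone marrow than in Fos+/+ spleen. A further probe set of the gene read 82.2 with deltaNFAT, 49.1 with GFP and 13.3 without virus, against 25.6 in Fos+/+ bone marrow and 15.2 in Fos+/+ spleen. Between GFP-infected Fos-/- spleen and Fos+/+ bone marrow it ran the other way, 1.92-fold higher, so the direction of that fold depends on the probe set. Both probe sets were highest with deltaNFAT, and the mean of the 2 gave 2.41-fold over GFP, but at the floor of 65.1 the fold was 1.39.

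Genes that process the cytokines were described next. Casp1, the protease that cuts both precursors, read 83.4 with deltaNFAT, 69.6 with GFP and 31.9 without virus in Fos-/- spleen, against 116 in Fos+/+ bone marrow and 46.6 in Fos+/+ spleen. It was 2.18-fold higher with GFP than without virus and 2.50-fold higher in Fos+/+ bone marrow than in Fos+/+ spleen, so its highest array was one in which Il18 was low. Casp4, an inflammatory caspase upstream of Casp1, was highest in Fos+/+ bone marrow at 62.7 and lowest in Fos-/- spleen without virus at 3.50. Casp8, an apoptotic protease that can also cut interleukin 1 beta, ranged from 72.5 to 130, and P2rx7, the ATP-gated channel that triggers interleukin 1 release, from 116 to 214.

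The neutrophil serine proteases, which also cut interleukin 1 family proteins, were highest in Fos+/+ bone marrow. Prtn3 read 205 in Fos+/+ bone marrow, against 29.7 in Fos+/+ spleen, Elane read 453 against 109, and Ctsg 81.1 against 14.7. In that comparison 4 of 7 processing genes, all 7 bright enough, were higher and 0 lower, beside 13.1% and 7.18% of all genes bright enough. The median log2 ratio of the 7 was 1.32 beside 0.05 over all genes above the floor in at least 1 array. The summed intensity of 8 neutrophil markers was 9614 in Fos+/+ bone marrow, against 1358 in Fos+/+ spleen, and its part in these folds was not tested. In Fos-/- over Fos+/+ spleen 1 of 7 was higher (Prtn3, 2.55-fold) and 0 lower, with 5 bright enough, beside 6.4% and 6.52% of all genes. In GFP-infected Fos-/- spleen over Fos+/+ bone marrow 3 of 7 were lower (Ctsg, Elane and Casp4) and 0 higher, with 7 bright enough, beside 9.19% and 5.98%. With deltaNFAT over GFP 0 of 7 passed, with 5 bright enough, beside 3.52% higher and 2.66% lower of all genes. With GFP over no virus 1 of 7 was higher, the Casp1 already given, with 5 bright enough, beside 10.3% of all genes.

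The number of signalling components downstream of the receptors that passed differed by comparison. Of 21 on the array, 0 passed in Fos-/- over Fos+/+ spleen, beside 6.4% higher and 6.52% lower of all genes bright enough. The median log2 ratio there was -0.25, beside 0 over all genes. With deltaNFAT over GFP 0 passed, beside 3.52% higher and 2.66% lower, and the median was -0.00. In GFP-infected Fos-/- spleen over Fos+/+ bone marrow Jun (2.91-fold) and Tollip (at least 2.37-fold) were higher and 0 were lower, beside 5.98% and 9.19% of all genes bright enough. Between the Fos+/+ tissues 3 were higher and 2 lower in bone marrow, beside 13.1% and 7.18%. With GFP over no virus 2 were higher and 0 lower, beside 10.3% and 7%. In Fos-/- over Fos+/+ spleen 16 of the 21 were bright enough, and in each other comparison 19 were. Myd88, the adaptor of both receptors, ranged from 59.3 in Fos+/+ bone marrow to 111 with GFP, and Irak1, the kinase it recruits, from 177 with deltaNFAT to 294 in Fos-/- spleen without virus. Tab2, an adaptor of the kinase Map3k7, was 2.54-fold higher with GFP than without virus and 2.22-fold higher in Fos+/+ bone marrow than in Fos+/+ spleen. Map3k7 passed in the same 2 comparisons, by 2.48-fold and 2.17-fold, on readings of 21.6 to 55.2. In that tissue comparison Peli1 (2.03-fold higher) and Tollip (at least 2.14-fold lower) also passed. Jun, the partner of Fos in AP-1, was 3.45-fold lower in Fos+/+ bone marrow than in Fos+/+ spleen, with 27.0 against 93.2.

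Known target genes of interleukin 1 split by comparison. In Fos-/- over Fos+/+ spleen the calls were 2 higher and 4 lower of 20, of which 12 were bright enough. Of all genes bright enough 6.4% were higher and 6.52% lower. The median log2 ratio of the list was -0.06. The gelatinase Mmp9, which is also an osteoclast marker, was 3.59-fold lower, the prostaglandin synthase Ptges 3.52-fold, the acute phase gene Saa3 2.99-fold and the chemokine Cxcl5 at least 2.04-fold lower. The adhesion molecule Vcam1 was 2.52-fold higher, and Lcn2, an iron-binding defence protein, was at the threshold with 2.0-fold. A further Lcn2 probe set read nearly the same in both, 71.0 in Fos-/- spleen against 69.9 in Fos+/+ spleen. Ptges read 23.4 with deltaNFAT, 36.0 with GFP and 44.5 without virus in Fos-/- spleen, against 108 in Fos+/+ bone marrow and 156 in Fos+/+ spleen, so its Fos-/- readings were all below its Fos+/+ readings, as in 15.1% of all genes bright enough. Of the 20 target genes 14 were bright enough in some array, 4 had this arrangement and 3 the opposite one, which 10% of all genes had. In GFP-infected Fos-/- spleen over Fos+/+ bone marrow 2 were higher, Ccl2 (5.08-fold) and Ccl7 (at least 4.19-fold), and 2 lower, Ptges (3.01-fold) and Mmp9 (2.95-fold). Of all genes bright enough 5.98% were higher and 9.19% lower there. In Fos+/+ bone marrow over Fos+/+ spleen 2 were higher, Lcn2 (6.89-fold) and Vcam1 (2.15-fold), and 0 lower, beside 13.1% and 7.18% of all genes. The mean of the Lcn2 probe sets gave 2.88-fold for this tissue ratio. In each of these comparisons 12 of the 20 were bright enough. Il6, Ptgs2, Tnf, Nos2 and Tnfsf11 were under the floor in all 5 arrays.

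With deltaNFAT over GFP the median log2 ratio of these 20 target genes was 0.36 beside 0 over all genes. Of the 20, 12 were bright enough, and 5 were higher and 0 lower, beside 3.52% higher and 2.66% lower of all genes bright enough. The 5 were the stromelysin Mmp3 (at least 7.48-fold), the collagenase Mmp13 (7.19-fold), Saa3 (4.41-fold) and the monocyte attractants Ccl7 (4.35-fold) and Ccl2 (3.59-fold). Il1b stayed under the floor in the same array, and Il1rn and Il1r2 read higher there than with GFP. With GFP over no virus 4 of 20 were higher and 0 lower, namely Mmp13 (2.76-fold), Ccl2 (2.75-fold), Ccl7 (2.67-fold) and Lcn2 (2.49-fold). Again 12 were bright enough, and of all genes bright enough 10.3% were higher and 7% lower. A further Lcn2 probe set ran the other way, with 58.0 with GFP against 71.0 without virus. The mean of the Lcn2 probe sets gave 1.43-fold, short of 2-fold. The difference between the 2 virus ratios was not tested, and they share the GFP array.

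**Figure D3:**
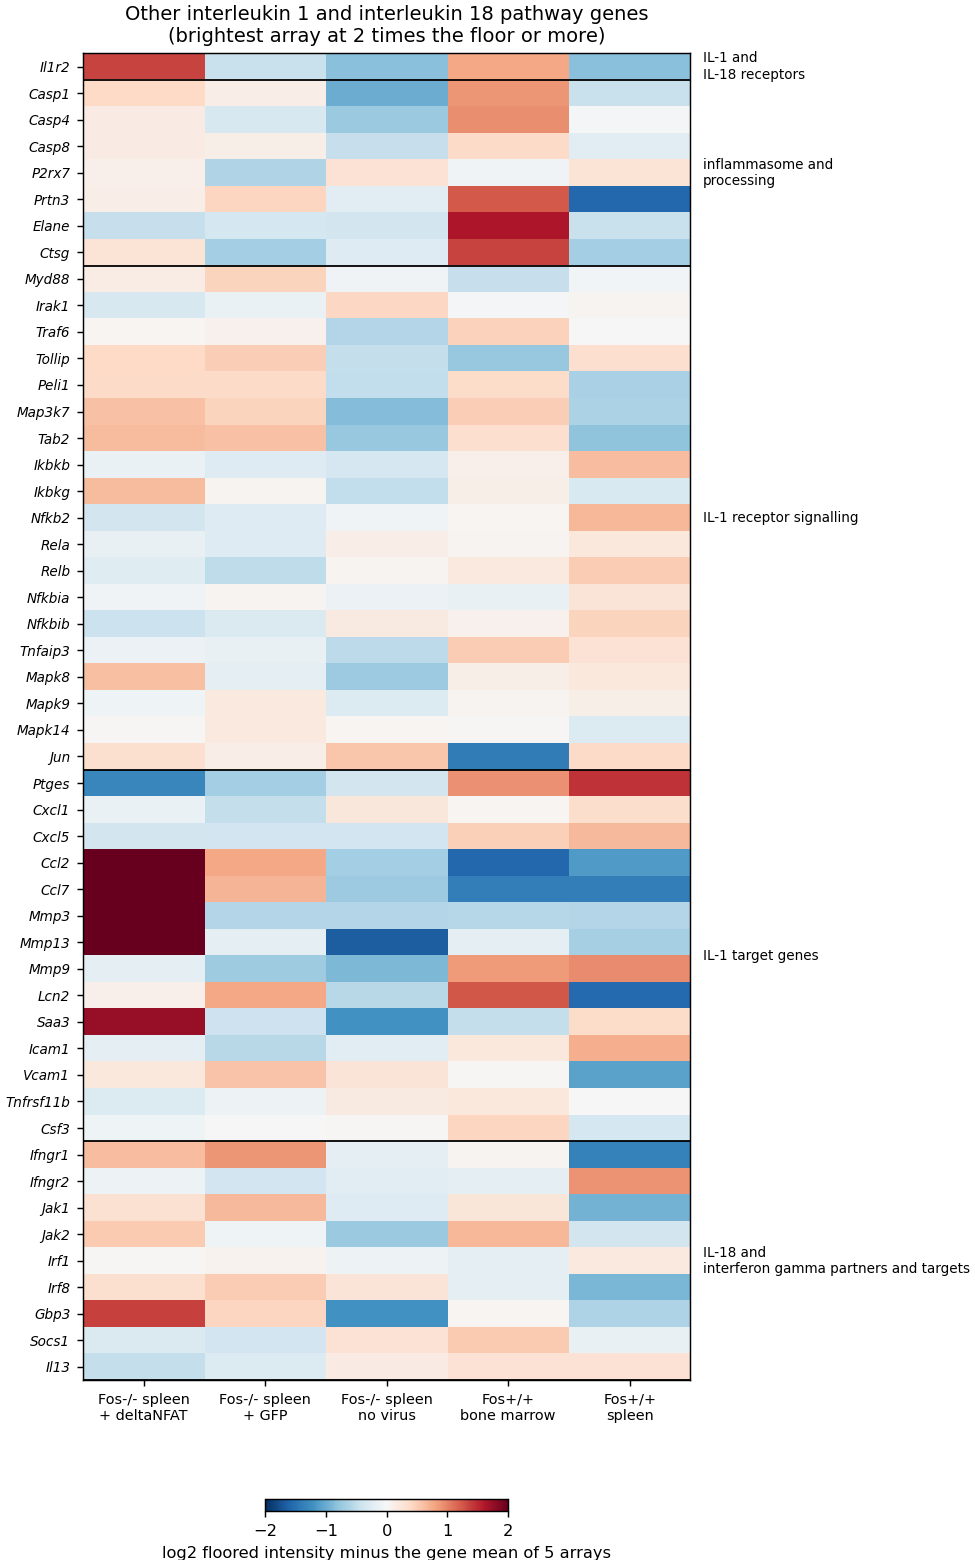
Log2 floored intensity minus the gene's mean over the 5 arrays (colour, limited to 2 either way) for the 50 list genes, outside the 5 described first, whose brightest array reached 39.6, in rows grouped by list, with the 5 arrays as columns. Ccl2, Ccl7, Mmp3, Mmp13, Saa3 and Il1r2 are highest with deltaNFAT, and the proteases Prtn3, Elane and Ctsg in Fos+/+ bone marrow.

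The last list held partners of interleukin 18 and genes of the interferon gamma response, since interferon gamma is a main product of cells that respond to interleukin 18 and a known inducer of Il18bp. Ifng itself ranged from -55.7 to -6.90 and Csf2, the cytokine through which interleukin 18 limits osteoclasts in mouse cultures, from -44.9 to -25.4, both under the floor everywhere. Il12a and Il12b, which encode the partner cytokine interleukin 12, were under the floor as well. In Fos-/- over Fos+/+ spleen 2 of 22 list genes were higher and 1 lower, with 7 bright enough, beside 6.4% and 6.52% of all genes. The higher ones were Irf8, a myeloid transcription factor that restrains osteoclast formation (2.26-fold), and the interferon gamma receptor chain Ifngr1 (2.22-fold), and the lower one was the other chain, Ifngr2 (2.17-fold).

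Irf8 read 247 with deltaNFAT, 280 with GFP and 236 without virus in Fos-/- spleen, against 175 in Fos+/+ bone marrow and 104 in Fos+/+ spleen. Its Fos-/- readings were all above its Fos+/+ readings, as in 10% of all genes bright enough. Of the 22 list genes 9 were bright enough in some array. Irf8 was the 1 gene with this arrangement, and 1 other had the opposite one, as in 15.1% of all genes. The interferon gamma targets Cxcl9 and Gbp2 did not follow Irf8. Cxcl9 was under the floor in all arrays, and Gbp2 was above it with deltaNFAT alone, at 34.2. Irf1 ranged from 214 in Fos+/+ bone marrow to 280 in Fos+/+ spleen, and Gbp3 read 118 with deltaNFAT, 62.2 with GFP and 16 without virus in Fos-/- spleen, against 47.1 in Fos+/+ bone marrow and 29.8 in Fos+/+ spleen. With deltaNFAT over GFP 0 of 22 passed, with 8 bright enough, beside 3.52% higher and 2.66% lower of all genes bright enough. With GFP over no virus 2 of 22 were higher, Ifngr1 (2.13-fold) and Gbp3 (at least 3.14-fold). In this GFP ratio 9 of the 22 were bright enough, and 10.3% of all genes bright enough were higher. In GFP-infected Fos-/- spleen over Fos+/+ bone marrow 0 of 22 passed, with 9 bright enough, beside 5.98% higher and 9.19% lower of all genes. In Fos+/+ bone marrow over Fos+/+ spleen 3 of 22 were higher, Ifngr1 (2.64-fold) and the kinases Jak1 (2.29-fold) and Jak2 (2.05-fold), and 1 was lower, Ifngr2 (2.12-fold). There 9 of the 22 were bright enough, and of all genes bright enough 13.1% were higher and 7.18% lower.

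Marker lists of the cells a dish could hold were summed per array. The 10 macrophage markers, all above the floor in every array, summed to 9107 with deltaNFAT, 9268 with GFP and 8195 without virus in Fos-/- spleen, against 7889 in Fos+/+ bone marrow and 6610 in Fos+/+ spleen. This sum was higher in all 3 Fos-/- arrays than in both Fos+/+ arrays, but that rested on Marco, a scavenger receptor gene. Without Marco it was 8591 with deltaNFAT, 8660 with GFP and 7434 without virus, against 7666 in Fos+/+ bone marrow and 6503 in Fos+/+ spleen, so the groups overlapped. Of all genes bright enough, 10% had all 3 Fos-/- arrays above both Fos+/+ arrays and 15.1% had them all below. Of the 10 macrophage markers, all 10 bright enough, 4 (Adgre1, Marco, Aif1 and Fcgr1) had all Fos-/- arrays above both Fos+/+ arrays, 1 (Cd68) had them all below and 5 did neither. Their part in the pattern of Il18 and Il18bp was not tested. The 8 osteoclast markers summed to 3569 with deltaNFAT, 1770 with GFP and 1819 without virus, against 10689 in Fos+/+ bone marrow and 13605 in Fos+/+ spleen. All 8 had their Fos-/- arrays below both Fos+/+ arrays, and their part was not tested either. Of 8 T and NK cell markers 7, among them Cd3e, Cd3d, Cd3g, Cd8a and Ncr1, were under the floor in all arrays, and the one above it, Cd4, is also made by some myeloid cells. The 12 stromal markers, 10 of them bright enough, summed to between 17122 and 18805 in the Fos-/- arrays, against 15506 to 16036 in the Fos+/+ arrays. By their brightest probe sets 3 of the 12 (Col1a2, Col3a1 and Vcam1) had all Fos-/- arrays above both Fos+/+ arrays. This depended on the probe set. A further Col1a2 probe set had them all below, with 311 to 385 against 389 and 480, and a further probe set each of Col3a1 and Vcam1 overlapped. Another Col3a1 probe set had them all above, with 144 to 175 against 84.0 and 96.4. So did another Vcam1 probe set, with 465 to 591 against 196 and 406. The stromal sum stayed higher in all 3 Fos-/- arrays than in both Fos+/+ arrays with any 1 marker left out. The part of the stromal markers was not tested.

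**Figure D4:**
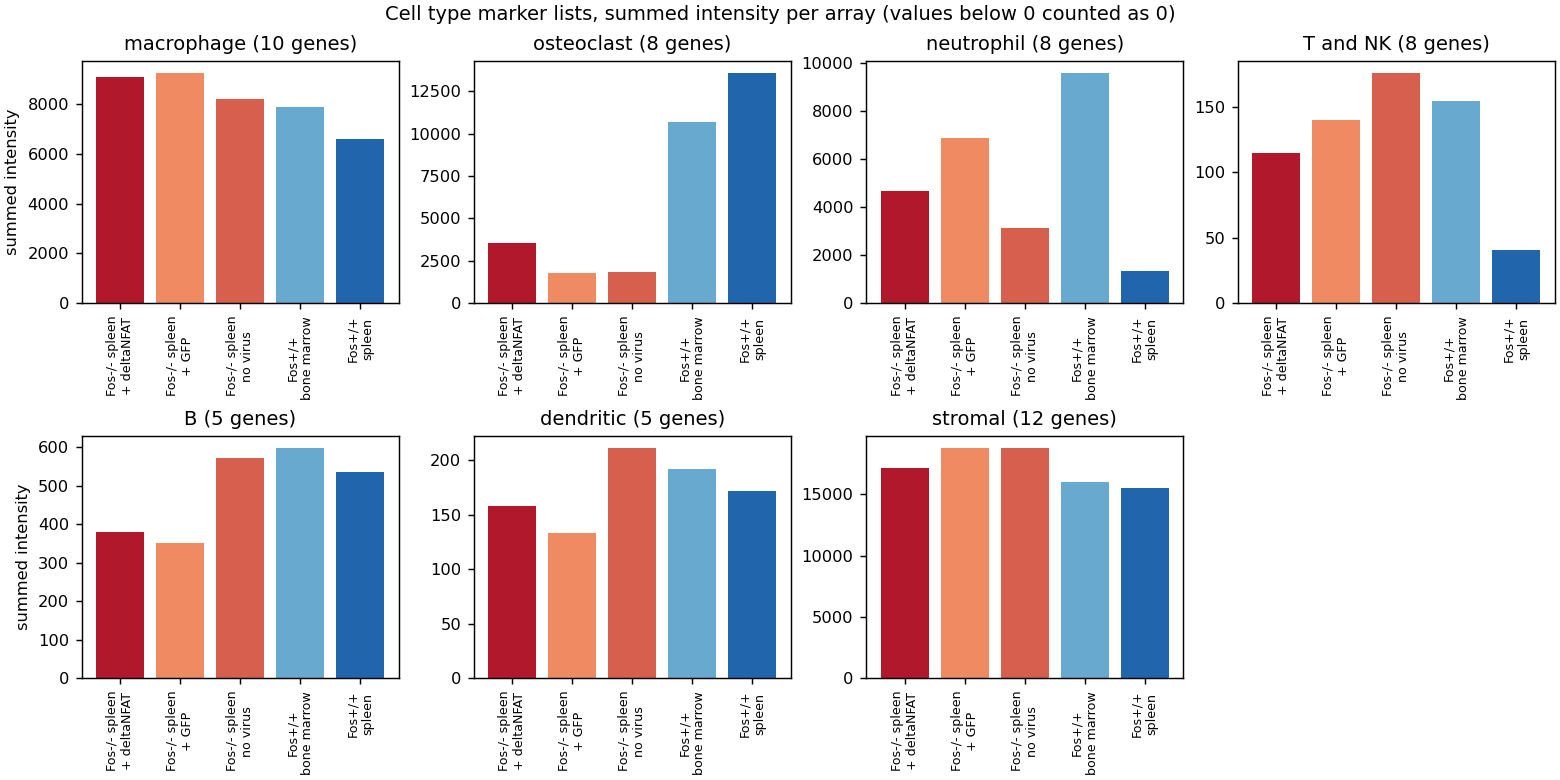
Summed intensity (linear scale, vertical axis, values below 0 counted as 0) of 7 cell type marker lists in the 5 arrays (horizontal axis), 1 bar per array and a separate vertical axis for each list. Osteoclast markers are at 10689 and 13605 in the Fos+/+ arrays and at 3569 or less in the Fos-/- arrays, whereas the macrophage sums, 8195 to 9268 in the Fos-/- arrays against 6610 and 7889 in the Fos+/+ arrays, overlap once Marco is left out.

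The genes whose pattern was closest to that of Il18 were found by the root mean square difference of floored log2 values centred on their mean over the 5 arrays, among 4401 genes with an array at 79.2 or more. They were the signalling adaptor Gab1 (0.14), the lysosomal glycoprotein gene Creg1 (0.15), Sh3bp5 (0.18), the peroxisomal enzyme gene Hsd17b4 (0.20) and Hsbp1 (0.20). Creg1, for example, read 183 with deltaNFAT, 261 with GFP and 181 without virus in Fos-/- spleen, against 57.0 in Fos+/+ bone marrow and 50.5 in Fos+/+ spleen. Its readings were all above the floor, with GFP highest as for Il18. Gab1, the closest, was under the floor in both Fos+/+ arrays, with 8.0 in bone marrow and 7.5 in spleen, so its likeness rests in part on the floor. For Il18bp the closest were Poldip3 (0.21), the prostaglandin-degrading enzyme gene Hpgd (0.31), Csrp2 (0.32), Smagp (0.35) and Ppdpf (0.35). Of these, Poldip3, Hpgd and Smagp were also under the floor in both Fos+/+ arrays. Csrp2 read 124 with deltaNFAT, 129 with GFP and 184 without virus, against 50.4 in Fos+/+ bone marrow and 47.9 in Fos+/+ spleen. The lists of 5 held no gene in common, and likeness over 5 arrays is a description of these arrays.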

How the data were processed

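RNA of 5 co-cultures, 1 per group, was measured on one-colour oligonucleotide arrays, and groups were taken from sample titles. The authors deposited linear intensity values, 1 for each probe set of an array; their software is not stated in the labels. The deposited values show a common trimmed mean and readings below 0. Arrays were rescaled to equal means without the lowest and highest 2%, values under the 40th percentile of all values were raised to that floor before log2 (Python 3.11.15, pandas 2.3.3, numpy 2.4.6). Of the probe sets, 10855 carried 1 symbol, 396 several and 1237 none. A gene was represented by its brightest probe set. Calls needed a fold of 2 and a reading of 2 times the floor in the brighter array. The procedure was tested on simulated data, with changes planted only in genes reading 4 times the floor or more. Its added noise was narrower than the spread of the arrays around 0. That test says nothing of dimmer readings, such as that of Il18 in Fos-/- spleen without virus. Other list genes were named when called and reaching 4 times the floor, up to 4 per list and comparison; receptor and processing genes were all named. List genes named outside this rule (Myd88, Irak1, Map3k7, Peli1, Tollip, Gbp2, Gbp3, Irf1, Cxcl5, Cxcl9, Lcn2 and genes at the floor) were chosen after their values were seen. The members and lists were chosen with earlier results of these data known. Alternatives were the deposited values, quantile normalization, other floors, the mean of a gene's probe sets and probe sets without a letter suffix; a floor at the average size of the 1st percentile, and marker sums without each gene in turn, were added after seeing the data. The promoter motifs were settled after a first scan: a longer interferon regulatory factor motif was shortened, and an NF-kB motif, which matched the printed Il1rn window, is not shown. A further motif that was searched is not reported here. The number of arrays limits the precision.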

Additional observations from a re-analysis of the deposited data

How the results depend on the processing

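The 5 calls among the 5 genes were Il18 and Il18bp in both ratios of Fos-/- to Fos+/+ and Il1r1 in the second. All 5 were kept with quantile normalization. A lower floor can only widen a fold and loosen the brightness cut, so the 5 calls had to be kept at the 30th percentile (7.40). They were also kept with the deposited values, the mean of probe sets and unsuffixed probe sets, but these alternatives say little here. Each of the 5 genes has 1 probe set, without a letter suffix, so the latter pair could not change its calls. The deposited values differ from the scaled ones by factors of 0.99994 to 1.0001. The calls depended on higher floors. At the 60th percentile (65.1) the members counted were 0 in Fos-/- over Fos+/+ spleen and 1, Il1r1, in GFP-infected Fos-/- spleen over Fos+/+ bone marrow, and at the floor of 96.6, chosen after seeing the data, they were also 0 and 1. At the 30th percentile 2 members were counted in Fos+/+ bone marrow over Fos+/+ spleen, Il18 as higher and Il18bp as lower, from readings of 22.0 or less. Genes with all Fos-/- arrays above both Fos+/+ arrays numbered 558, or 292 at the floor of 96.6, and those with all below numbered 839, or 483 at the 60th percentile and 336 at the floor of 96.6. No called ratio of the 5 genes changed sign, but a floor can shrink a ratio to 0 and cannot reverse it. The other floors could therefore not have shown a change of sign. Of 36 calls of other named genes, 27 were kept at the 60th percentile and 19 at the floor of 96.6; at least 34 were kept under each other alternative. No paired analysis was possible because each group had 1 array, and no replicate could be left out.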

Other observations

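Some receptors of other interleukins, chosen after their values were seen, also differed between arrays. Il15ra, the high-affinity receptor chain of interleukin 15, read 124 with deltaNFAT, 95.6 with GFP and 11.0 without virus in Fos-/- spleen, against 68.8 in Fos+/+ bone marrow and 13.2 in Fos+/+ spleen. It was at least 4.83-fold higher with GFP than without virus and at least 3.47-fold higher in Fos+/+ bone marrow than in Fos+/+ spleen, and both uninfected spleen arrays were under the floor. Il6ra, the ligand-binding chain of the interleukin 6 receptor, ran the other way with virus, reading 14.6 with deltaNFAT, 20.6 with GFP and 99.99 without virus in Fos-/- spleen, against 120 in Fos+/+ bone marrow and 40 in Fos+/+ spleen. It was 4.85-fold lower with GFP than without virus and 2.50-fold above Fos+/+ in Fos-/- spleen. The other ratio of Fos-/- to Fos+/+ ran the opposite way: Il6ra was 5.81-fold lower in GFP-infected Fos-/- spleen than in Fos+/+ bone marrow. Between the Fos+/+ arrays it was 2.99-fold higher in bone marrow than in spleen. Il6st, the signalling chain that Il6ra shares with other receptors, ranged from 238 to 326 and passed in none of the 5 comparisons.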
